A study of Mus musculus with 4 samples.

Results

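The promoters of the solute carrier (Slc) genes were taken as the rows of the deposited promoter table whose gene symbol starts with Slc followed by a digit. This gave 348 of the 26354 promoters, from 48 numbered families. Of these, 43 belonged to the Slc25a genes, 22 to the Slc22a genes and 283 to all other families. The organic anion transporters named Slco were not included. The rule used only the symbol and no measured value. It also took in 5 symbols that do not have the plain form of a carrier gene, namely Slc4a1ap, Slc7a6os, Slc22a13b-ps, Slc9a3r1 and Slc9a3r2.

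Solute carriers are membrane proteins that move sugars, amino acids, nucleosides, inorganic ions, metals, vitamins, drugs and metabolites across membranes. The Slc25a proteins sit mainly in the inner mitochondrial membrane, where they exchange nucleotides, phosphate and metabolic intermediates, and many are used by nearly every cell. The Slc22a proteins are organic anion, cation and carnitine transporters of the plasma membrane, many of them known from kidney and liver. Dimethylation of histone H3 at lysine 9 (H3K9me2) is a chromatin mark placed mainly by the G9a/GLP methyltransferases and associated with silent genes. In vascular smooth muscle cells (VSMCs), carriers set intracellular calcium, chloride, pH and phosphate and supply glucose, lactate and amino acids.

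Male C57Bl/6J mice provided the tissue, the muscular middle layer (media) of the aorta, in which H3K9me2 was measured by chromatin immunoprecipitation and sequencing (ChIP-seq) with no treatment, no culture and no transgene named. The endothelium and the adventitia had been removed by hand, and the tissue was fixed directly. The 4 libraries come from 2 independent experiments named v102 and v134. In each experiment 1 library was made from chromatin pulled down with the H3K9me2 antibody (ChIP) and 1 from the associated chromatin before the pull-down (input). Neither the age nor the number of mice behind a library is given in the sources used here, so differences between experiments may be technical. Each value is the number of reads within 1 kb of a transcription start site. The 4 libraries held 162233 (ChIP v102), 229605 (ChIP v134), 619100 (input v102) and 1084349 (input v134) reads over all promoters.

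Cell identity can be read from H3K9me2 only in part. Of the 8 VSMC marker promoters, Myh11 had 0 ChIP reads against 19 and 41 input reads, Lmod1 was likewise below input, Smtn was above input, and the other 5 passed in neither direction. Their percentiles ranged from 0.736 to 88.7, with a median of 27.9. Of the 5 leukocyte markers in the table, Ptprc and Itgam were above input and none was below. Of the 6 endothelial markers 1 was above and 2 were below, and of the 4 adventitial fibroblast markers none was above and 2 were below. For all promoters the shares were 18.6% above and 17% below, and lists of 4 to 8 markers are too short to compare with them. The part of other cell types in the results was not tested.

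The 8 promoter sequences below show the range of base composition behind the results, from 250 bases before to 50 bases after the start site of the RefSeq transcript on GRCm38.p6, written 5′ to 3′ on the strand of the gene. CG dinucleotides, the sites of DNA methylation, are in capitals. The first 5 promoters were above input. They are those of Slc7a14 (chr3:31310270-31310569, minus strand), Slc22a13 (chr9:119209056-119209355, minus strand), Slc22a19 (chr19:7711261-7711560, minus strand), Slc25a31 (chr3:40708621-40708920, plus strand) and Slc25a13 (chr6:6217124-6217423, minus strand). The last 3 had no ChIP read in either experiment. They are those of Slc38a2 (chr15:96699679-96699978, minus strand), Slc25a28 (chr19:43674832-43675131, minus strand) and Slc15a2 (chr16:36784913-36785212, minus strand).
Slc7a14: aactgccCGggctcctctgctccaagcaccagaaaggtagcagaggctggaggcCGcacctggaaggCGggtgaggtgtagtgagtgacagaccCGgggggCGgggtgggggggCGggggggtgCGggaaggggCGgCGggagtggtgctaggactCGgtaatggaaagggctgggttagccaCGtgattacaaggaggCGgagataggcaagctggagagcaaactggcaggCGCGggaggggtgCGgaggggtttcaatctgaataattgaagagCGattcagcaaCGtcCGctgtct
Slc22a13: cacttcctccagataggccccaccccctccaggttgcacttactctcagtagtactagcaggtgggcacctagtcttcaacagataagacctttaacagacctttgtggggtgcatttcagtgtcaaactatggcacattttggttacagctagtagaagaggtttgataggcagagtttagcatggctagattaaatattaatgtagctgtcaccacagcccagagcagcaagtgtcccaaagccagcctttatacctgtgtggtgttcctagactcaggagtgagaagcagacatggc
Slc22a19: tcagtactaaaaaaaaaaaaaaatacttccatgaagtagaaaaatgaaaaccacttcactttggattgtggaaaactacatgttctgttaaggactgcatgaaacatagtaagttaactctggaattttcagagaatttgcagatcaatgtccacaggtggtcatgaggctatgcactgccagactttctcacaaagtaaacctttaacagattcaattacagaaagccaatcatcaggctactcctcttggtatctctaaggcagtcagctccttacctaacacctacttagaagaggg
Slc25a31: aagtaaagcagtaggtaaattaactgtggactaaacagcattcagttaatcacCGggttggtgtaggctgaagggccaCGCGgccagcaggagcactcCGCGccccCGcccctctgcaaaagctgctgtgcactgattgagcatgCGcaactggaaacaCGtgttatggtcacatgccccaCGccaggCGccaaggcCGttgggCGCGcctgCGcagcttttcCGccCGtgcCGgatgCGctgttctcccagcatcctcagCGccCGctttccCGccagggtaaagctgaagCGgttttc
Slc25a13: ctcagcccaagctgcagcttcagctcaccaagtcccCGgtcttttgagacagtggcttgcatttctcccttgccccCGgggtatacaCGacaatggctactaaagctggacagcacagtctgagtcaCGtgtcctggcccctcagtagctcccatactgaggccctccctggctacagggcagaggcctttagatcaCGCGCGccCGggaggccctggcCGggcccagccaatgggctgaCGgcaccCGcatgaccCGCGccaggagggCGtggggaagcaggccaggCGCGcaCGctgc
Slc38a2: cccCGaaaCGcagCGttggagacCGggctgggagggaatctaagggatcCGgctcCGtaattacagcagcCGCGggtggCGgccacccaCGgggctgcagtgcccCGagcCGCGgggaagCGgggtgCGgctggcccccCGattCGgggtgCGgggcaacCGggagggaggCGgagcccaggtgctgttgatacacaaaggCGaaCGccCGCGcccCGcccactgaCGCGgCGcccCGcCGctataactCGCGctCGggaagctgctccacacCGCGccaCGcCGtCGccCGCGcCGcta
Slc25a28: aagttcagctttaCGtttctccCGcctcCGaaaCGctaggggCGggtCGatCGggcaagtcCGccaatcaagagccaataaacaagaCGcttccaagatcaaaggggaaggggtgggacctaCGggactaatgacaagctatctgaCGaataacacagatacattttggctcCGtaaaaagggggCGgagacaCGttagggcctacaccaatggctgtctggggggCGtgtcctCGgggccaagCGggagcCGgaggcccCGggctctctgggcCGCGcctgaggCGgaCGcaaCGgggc
Slc15a2: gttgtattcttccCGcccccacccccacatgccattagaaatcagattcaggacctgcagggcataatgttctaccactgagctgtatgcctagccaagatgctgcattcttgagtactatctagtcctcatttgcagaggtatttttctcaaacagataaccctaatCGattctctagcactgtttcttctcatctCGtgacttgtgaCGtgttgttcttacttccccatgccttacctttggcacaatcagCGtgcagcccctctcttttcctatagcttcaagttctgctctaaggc

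The organic anion transporter promoters of Slc22a13 and Slc22a19 held 0 CG each, whereas the mitochondrial carrier promoters of Slc25a13 and Slc25a31, which were also above input, held 17 and 22. Slc38a2 and Slc25a28, with no ChIP reads, held 41 and 24, but Slc15a2, also with none, held 5. RefSeq promoter entries matched 266 of the 348 symbols, and 243 had a start within 1 kb of the GENCODE start of the same gene. Over these 243 the median number of CG was 15, compared with 16 over all 12996 promoters matched in the same way. It was 18 for 33 Slc25a promoters and 5.5 for 16 Slc22a promoters. At least 10 CG were present in 81.8% of the Slc25a and 31.3% of the Slc22a sequences, compared with 65.5% of all matched promoters. The CG motif reads the same on both strands, and these counts describe the letters only.

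At the Slc promoters the median number of reads was 3 and 4 in the ChIP libraries of v102 and v134, and 20 and 36 in the inputs. The input reads summed over both experiments ranged from 21 to 118, and no Slc promoter had more than 65 ChIP reads. The ratio given is the deposited one, ChIP reads of both experiments divided by input reads of both, with a 95% Wilson interval. The intervals cover the counting error of the summed reads only and leave out the difference between experiments. In addition, the libraries carry no molecular identifiers, so reads may repeat a molecule. Because this ratio is not scaled for library size, each promoter was also ranked by its log2 ratio of ChIP to input, each divided by its library total over the promoters, with a pseudocount of 1 read. The mean of both experiments gives the percentile among all 26354 promoters, where 100 is the highest H3K9me2.

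As a class, the solute carrier promoters carried slightly less H3K9me2 than promoters in general. Their median percentile was 43.2, with 44.2 in v102 and 42.3 in v134, and their median ratio was 0.135 compared with 0.162 over all promoters. The scaled ratio of their summed reads, for which all promoters together are 1, was 0.890 in v102 and 0.776 in v134. Members ranged from percentile 0.736 to 99.6, so the class as a whole did not share a level. Once the dependence on GC content across all promoters was subtracted, the median percentile was 51.5.

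ChIP and input libraries, 2 of each, were compared by edgeR's quasi-likelihood test over all promoters. At a Benjamini-Hochberg adjusted p under 0.05 it called 33 Slc promoters above input and 56 below, leaving 259 that passed in neither direction. The share above was 9.48%, compared with 18.6% of all promoters, and the share below was 16.1%, compared with 17% of all. Of the Slc promoters, 29 (8.33%) were in the top quartile of both experiments, compared with 17.7% of all promoters. The median log2 fold change over all promoters was −0.35 with TMM scaling and −0.50 with scaling by library totals, a shift of −0.14 to be read beside every fold change. With the experiment as a block, 30 were above (8.62%, compared with 15.8% of all promoters) and 25 below (7.18%, compared with 8.30%), all of them among those called without it. DESeq2 called 19 above (5.46%, compared with 11.6% of all promoters) and 0 below (compared with 0.102% of all), with 27 below at an unadjusted p under 0.05, and gave no adjusted p for 271 of the 348.

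The experiments ranked the Slc promoters less alike than promoters in general. The Spearman rho of the log2 ratios of v102 and v134 was 0.451 over the 348 Slc promoters and 0.689 over all promoters, values that share libraries and depth across points and are given as a description. The top quartile held 65 Slc promoters in v102 and 47 in v134. Of the 33 promoters above input, 27 were in the top quartile of both experiments, as were 2 promoters that the test did not call.

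**Figure D1:**
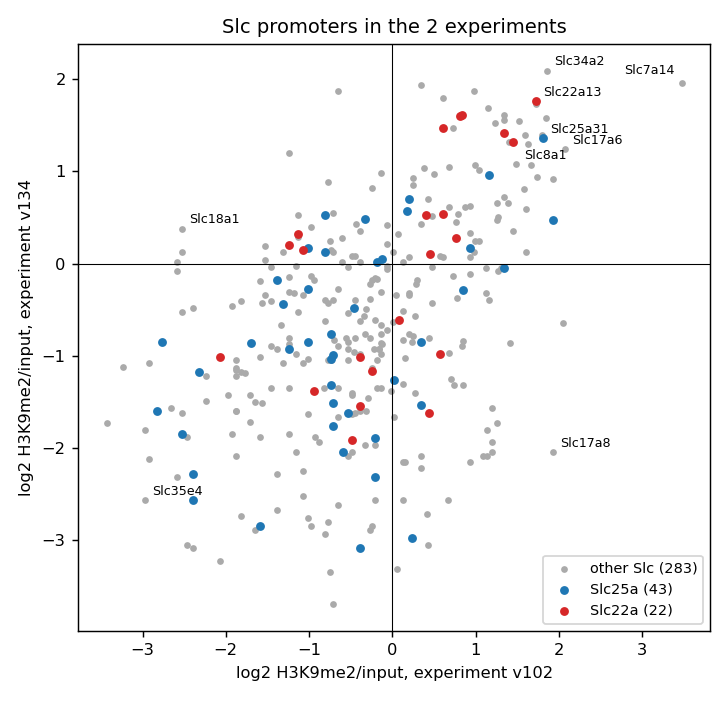
Log2 H3K9me2/input ratio (scaled by library totals, pseudocount 1 read) of each of the 348 Slc promoters in experiment v102 (x axis) against v134 (y axis), with Slc25a in blue, Slc22a in red and other families in grey. Slc7a14 and Slc22a13 lie high in both experiments, whereas Slc17a8 and Slc18a1 each lie above 0 in 1 experiment and below 0 in the other.

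The highest Slc promoter was that of Slc7a14, a relative of the cationic amino acid transporters known from nervous tissue and retina. It had 34 and 31 ChIP reads in v102 and v134 against 11 and 38 input reads, a ratio of 1.33 (95% interval 0.917 to 1.92). Its mean log2 ratio was 2.72 ± 1.08 (SD, n = 2), at percentile 99.6. Although ChIP libraries held far fewer reads in total, v102 gave more ChIP than input reads here, and v134 nearly as many. Its log2 fold change was 2.73 (SE 0.36, edgeR quasi-likelihood test, adjusted p = 1.28e-11).

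Slc34a2, the sodium-phosphate cotransporter of lung and intestine, followed with 17 and 36 ChIP reads against 18 and 40 input reads, a ratio of 0.914 (0.631 to 1.32). Slc22a13, a kidney organic anion transporter, had 18 and 27 ChIP reads against 21 and 38 input reads, a ratio of 0.763 (0.519 to 1.12). Slc38a4, an amino acid transporter of liver and placenta that is imprinted in mice, had 12 and 20 ChIP reads against 14 and 29 input reads, a ratio of 0.744 (0.473 to 1.17). At these 3 promoters the scaled ChIP signal exceeded the input in both experiments, as the choice required. The mean log2 ratios at these promoters were 1.97 ± 0.17, 1.74 ± 0.03 and 1.73 ± 0.00044 (SD, n = 2). Their log2 fold changes were 2.13, 1.86 and 1.83, with adjusted p-values of 2.90e-07, 1.78e-05 and 0.000234 by edgeR.

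Neurotransmitter carriers stood next in rank. Slc6a5, the glycine transporter GlyT2 of inhibitory neurons, had 15 and 23 ChIP reads against 16 and 37 input reads, a ratio of 0.717 (0.474 to 1.08). Slc17a6, the vesicular glutamate transporter VGLUT2, had 31 and 29 ChIP reads against 28 and 59 input reads, a ratio of 0.690 (0.497 to 0.957). Each experiment placed both of them in its top quartile, as the choice of the highest promoters required. The log2 fold changes were 1.79 (SE 0.40) and 1.76 (SE 0.34) by edgeR, with adjusted p-values of 0.000105 and 6.44e-06.

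The other 6 of the 12 highest promoters had ratios between 0.597 and 0.684. Slc25a31, which encodes the testis form of the mitochondrial ADP/ATP carrier, had 21 and 18 ChIP reads against 23 and 34 input reads. Slc5a12, a sodium-coupled lactate transporter, had 9 and 14 against 10 and 26, and Slc13a1, the kidney sulfate transporter, had 14 and 28 against 19 and 46. All 6 were above input in both experiments, as the choice required. Slc35f4 is an orphan member of the nucleotide sugar transporter family, Slc28a2 a sodium-coupled purine nucleoside transporter and Slc17a4 an intestinal organic anion transporter, and their ratios were 0.636, 0.625 and 0.597. For Slc28a2, with 5 and 10 ChIP reads against 8 and 16 input reads, the edgeR adjusted p of 0.0274 became 0.0836 with the block.

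At the other end, 5 of the 348 Slc promoters had 0 ChIP reads in both experiments, compared with 523 of all 26354 promoters. These were Slc10a7, of the bile acid transporter family, with 20 and 38 input reads, Slc15a2, the peptide transporter PEPT2, with 19 and 39, Slc35e4, an orphan carrier, with 29 and 27, Slc25a28, the mitochondrial iron importer mitoferrin 2, with 19 and 27, and Slc38a2, the widely expressed amino acid transporter SNAT2, with 11 and 34. A count of 0 was given an approximate upper limit of 3 reads over both ChIP libraries, which covers counting error only. On this limit, the ratios of Slc10a7 and Slc15a2 were at least 4.45-fold lower than the pooled ratio of all promoters (0.230). Those of Slc35e4, Slc25a28 and Slc38a2 were at least 4.29-fold, 3.53-fold and 3.45-fold lower. All 5 were below input by edgeR, with adjusted p-values between 0.000597 and 0.00276. The window of Slc10a7 overlapped that of Rbmxl1, and that of Slc25a28 overlapped AC138790.1, so their reads cannot be told apart from those of the neighbour.

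A single ChIP read was found at Slc12a3, the thiazide-sensitive sodium-chloride cotransporter of the kidney (ratio 0.0147, interval 0.00257 to 0.0842), at Slc29a3, a lysosomal nucleoside transporter (same ratio and interval), and at Slc25a27, the uncoupling protein UCP4 (0.0156, 0.00273 to 0.0895). In each the read was in v134, and the window of Slc25a27 overlapped that of Cyp39a1. The 56 promoters below input had at most 8 ChIP reads, and 17 of them had at most 1, so their order rests on very few reads. Their highest ratio was 0.0842, whereas the 33 above input ranged from 0.423 to 1.33.

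**Figure D2:**
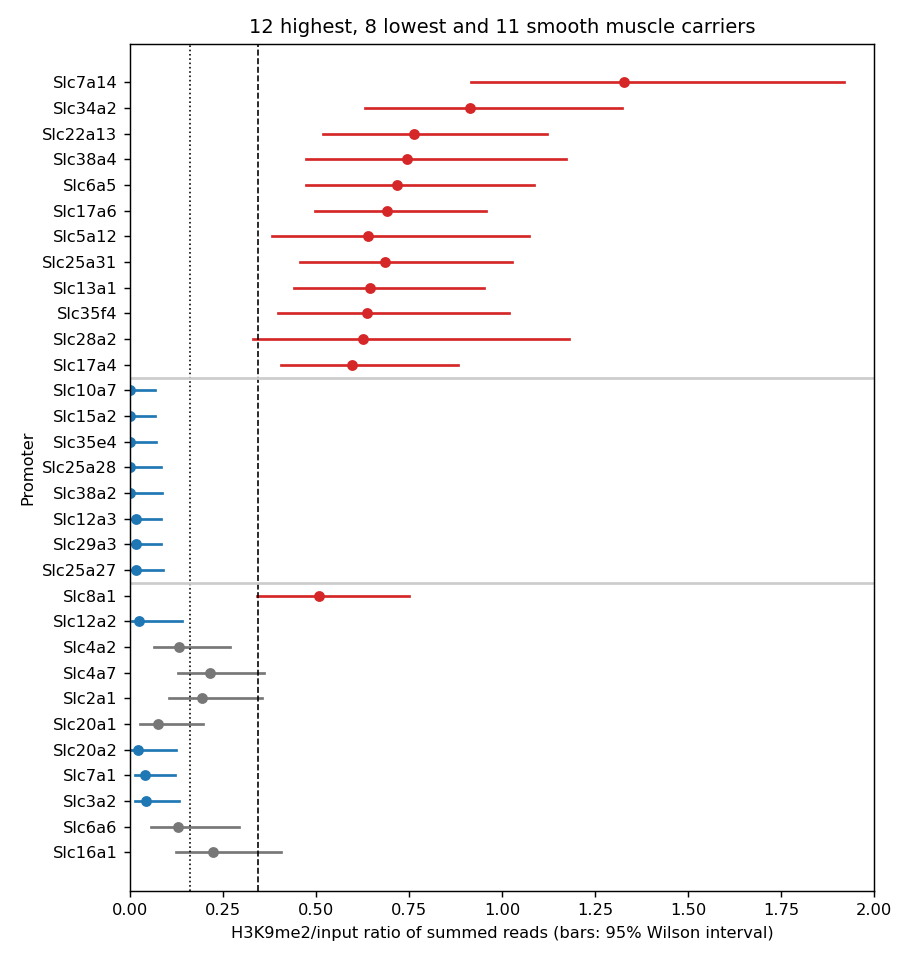
Ratio of summed H3K9me2 to summed input reads (x axis) with 95% Wilson intervals (counting error only) at the 12 highest, the 8 lowest and 11 vascular smooth muscle carrier promoters, coloured red where above input, blue where below and grey where neither by edgeR. Dotted and dashed lines mark the median (0.162) and the 75th percentile (0.343) of all promoters; among the smooth muscle carriers Slc8a1 alone is red.

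Families differed in where their members lay. Among the 27 families with at least 4 promoters, Slc17a had the highest median percentile, 79.1. This family holds vesicular glutamate and renal phosphate and urate transporters. It had 4 of its 9 promoters above input (44.4%, compared with 18.6% of all promoters) and 0 below (compared with 17% of all). It was followed by the peptide transporters Slc15a (72.9, 5 promoters, 0 above, 1 below) and the sodium-glucose family Slc5a (72.3, 13 promoters, 2 above, 0 below). The lowest medians were those of Slc45a (22.96, 4 promoters), the choline transporter-like Slc44a (29.6, 5 promoters) and the cation-chloride cotransporters Slc12a (31.1, 9 promoters), none of which had a member above input. Families of 4 or 5 members give medians that 1 promoter can move.

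**Figure D3:**
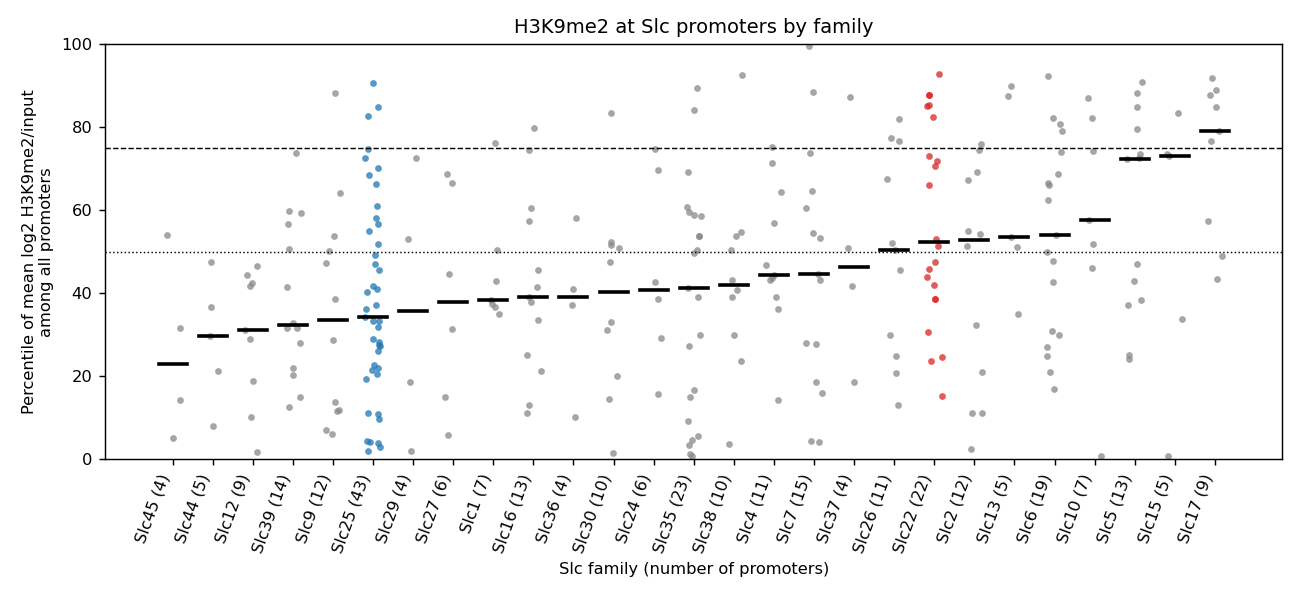
Percentile of the mean log2 H3K9me2/input ratio among all promoters (y axis) for each promoter of the 27 Slc families with at least 4 members (x axis, ordered by median, number of promoters in brackets), with Slc25a in blue and Slc22a in red. Bars are family medians, and the dotted and dashed lines mark the 50th and 75th percentiles; Slc17 has the highest median (79.1) and Slc45 the lowest (22.96).

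Families were grouped by number under a main substrate, so some members carry other substrates. The 72 promoters of the amino acid and neurotransmitter families had 10 above input (13.9%) and 8 below (11.1%). Those above included Slc17a1, Slc17a2 and Slc17a4, which encode phosphate, urate and anion transporters. Those below included Slc7a6os, which does not have the plain form of a carrier gene. The shares over all promoters were 18.6% above and 17% below. The median percentile of these 72 promoters was 46.2. The 34 promoters of the sugar families had 3 above (8.82%) and 7 below (20.6%), with a median of 48.9. The lactate transporter Slc5a12 was among those above. The 57 promoters of the ion families had 3 (5.26%) and 9 (15.8%), with a median of 42.4. Those below included Slc9a3r1 and Slc9a3r2, which also lack the plain form of a carrier gene. The 32 metal carriers had 1 (3.1%) and 6 (18.8%), with a median of 37.7. The single metal carrier above input was Slc30a8, the zinc transporter of insulin granules, with 9 and 19 ChIP reads against 22 and 33 input reads. Of the 23 nucleotide sugar carriers (Slc35), 2 were above (8.70%) and 8 below (34.8%, compared with 17% of all promoters). The 61 carriers of monocarboxylates, peptides, bile acids and other organic solutes had 4 above (6.56%) and 8 below (13.1%), with a median of 44.6. The 4 remaining promoters had 1 above, Slc33a1, and 0 below.

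The mitochondrial carriers carried less H3K9me2 than the organic ion transporters in both experiments. The median percentile of the 43 Slc25a promoters was 34.2 (32.8 in v102, 37.4 in v134), and that of the 22 Slc22a promoters was 52.2 (65.0 in v102, 64.3 in v134). The median of Slc22a was higher in each experiment alone than for their mean, so it depends on the ranking. From summed reads, the Slc25a promoters held 158 and 218 ChIP reads against 860 and 1659 input reads, and the Slc22a promoters 137 and 205 against 461 and 811. The scaled ratio was 0.701 and 0.621 for Slc25a and 1.13 and 1.19 for Slc22a, so these summed values did not overlap across experiments. Single promoters overlapped widely, with percentiles from 1.96 to 90.7 in Slc25a and from 15.2 to 92.8 in Slc22a. The pooled ratio of Slc22a was 1.80 times that of Slc25a, with 1.62 in v102 and 1.92 in v134. An exact paired permutation test over 2 experiments cannot go below p = 0.5, so no test was run on this difference.

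Of the Slc22a promoters, 6 (27.3%, compared with 18.6% of all promoters) were above input and 2 (9.09%, compared with 17%) below. After Slc22a13, the next were Slc22a19, a kidney organic anion transporter, with 19 and 27 ChIP reads against 27 and 52 input reads, and Slc22a22, a prostaglandin transporter of the mouse kidney, with 13 and 21 against 20 and 38. These 3 of the 22 Slc22a promoters (13.6%, compared with 17.7% of all promoters) were in the top quartile of both experiments. Slc22a26 had 6 and 19 ChIP reads against 14 and 30 input reads, Slc22a16, a carnitine transporter of the testis, had 11 and 17 against 25 and 27, and Slc22a6, the renal organic anion transporter OAT1, had 7 and 16 against 19 and 28. In these 3 the ratio was higher in v134 than in v102, and Slc22a6 passed with an edgeR adjusted p of 0.0316 that became 0.0787 with the block and 0.0590 with library totals. DESeq2 gave Slc22a26, Slc22a16 and Slc22a6 adjusted p-values of 0.0963, 0.113 and 0.169. Below input were Slc22a17, a receptor for lipocalin 2 (1 and 3 ChIP reads against 31 and 37 input reads), and Slc22a7, the liver transporter OAT2 (5 and 3 against 31 and 70), whose window overlapped that of Gm5093. Their edgeR adjusted p-values of 0.0313 and 0.0388 became 0.0697 and 0.0715 with the block and 0.0903 and 0.165 under a minimum of 20 reads per input library.

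Of the Slc25a promoters, 3 (6.98%) were above input and 8 (18.6%) below, compared with 18.6% above and 17% below over all promoters. Beside Slc25a31, the former were Slc25a26, the mitochondrial S-adenosylmethionine carrier, with 14 and 16 ChIP reads against 14 and 57 input reads, and Slc25a13, the aspartate/glutamate carrier citrin, with 9 and 20 against 16 and 50. Slc25a26 stood out mainly in v102, where its log2 ratio was 1.93 compared with 0.47 in v134, and its edgeR adjusted p of 0.0277 became 0.0520 with the block. Scaling by library totals gave adjusted p-values of 0.0628 for both Slc25a26 and Slc25a13, and DESeq2 gave 0.147 and 0.157. The 3 lowest were Slc25a28, Slc25a27 and Slc25a35, the last of them with 1 and 1 ChIP reads against 22 and 67 input reads (ratio 0.0225, interval 0.00608 to 0.0830).

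The 7 carriers that supply nearly every mitochondrion had no promoter above input and 1 (14.3%) below, with a median percentile of 36.2. Over all promoters 18.6% were above and 17% below. The one below was Slc25a11, the oxoglutarate carrier, with 0 and 2 ChIP reads against 26 and 42 input reads (edgeR adjusted p = 0.00582), in a window that overlapped that of Rnf167. The phosphate carrier Slc25a3 had a ratio of 0.242, the ADP/ATP carriers Slc25a4 and Slc25a5 had 0.102 and 0.0833, the citrate carrier Slc25a1 had 0.275, the carnitine-acylcarnitine carrier Slc25a20 had 0.222 and the glutathione carrier Slc25a39 had 0.0635. Intervals of these 6 were wide, from 0.0218 to 0.530 between the lowest and the highest bound. The testis form of the ADP/ATP carrier, Slc25a31 (0.684, 0.457 to 1.03), had an interval that did not overlap those of the widely expressed forms Slc25a4 (0.0419 to 0.249) and Slc25a5 (0.0218 to 0.318). Slc25a31 was named as the highest Slc25a promoter, so a gap to lower members is part of that choice. The difference between these promoters was not tested.

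Of the 12 carriers with known roles in vascular smooth muscle, 1 was above input (8.33%, compared with 18.6% of all promoters). Below were 4 (33.3%, compared with 17%), and 7 were in neither group. The median percentile of the 12 was 43.2, compared with 43.2 for all Slc promoters. The promoter above was that of Slc8a1, the sodium-calcium exchanger NCX1, with 13 and 24 ChIP reads against 18 and 55 input reads and a ratio of 0.507 (0.342 to 0.751). Each experiment placed it in its top quartile, with a log2 fold change of 1.31 (SE 0.39, edgeR adjusted p = 0.00426). DESeq2 gave it an adjusted p of 0.0673.

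The 4 below were Slc7a1, the arginine transporter CAT-1 (0 and 3 ChIP reads against 35 and 40 input reads), Slc20a2, the phosphate transporter PiT-2 (0 and 1 against 28 and 19), Slc3a2, the heavy chain of amino acid exchangers (0 and 3 against 17 and 52), and Slc12a2, the sodium-potassium-chloride cotransporter NKCC1 (1 and 0 against 15 and 26). No library gave more than 3 ChIP reads at any of them. Their edgeR adjusted p-values were 0.00693, 0.0132, 0.0170 and 0.0270, and with the block the last 3 became 0.0507, 0.0589 and 0.0810. Among those that passed in neither direction, the phosphate transporter Slc20a1 had a ratio of 0.0741. Higher ratios were found at the taurine transporter Slc6a6 (0.128), the anion exchanger Slc4a2 (0.131), the glucose transporter Slc2a1 (0.194), the bicarbonate cotransporter Slc4a7 (0.215) and the lactate transporter Slc16a1 (0.224).

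Of 20 neurotransmitter carriers, 19 were in the table (Slc18a3 was not analysed here). Of these 19, 10.5% were above input and 5.26% below, compared with 18.6% and 17% of all promoters. Beside Slc6a5 and Slc17a6 above input, 1 was below, the vesicular GABA transporter Slc32a1, with 0 and 2 ChIP reads against 13 and 42 input reads (edgeR adjusted p 0.0246, and 0.0751 with the block), in a window shared with Gm14204 and Gm14205. Their scaled ratio was 1.42 in v102 and 0.852 in v134, so the experiments put them on opposite sides of the average promoter. Slc17a8, the vesicular glutamate transporter VGLUT3, had 9 and 1 ChIP reads against 9 and 38 input reads, and Slc18a1, a vesicular monoamine transporter, had 0 and 10 against 21 and 39. Their percentiles were 92.8 in v102 and 11.4 in v134 for Slc17a8, and 3.79 and 69.1 for Slc18a1.

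Of 13 carriers characteristic of kidney, liver and gut, 3 were above input (23.1%, compared with 18.6% of all promoters). Another 2 (15.4%, compared with 17%) were below. Those above were Slc22a6, the ileal bile acid transporter Slc10a2 (10 and 19 ChIP reads against 20 and 44 input reads) and the renal transporter Slc17a1 (17 and 22 against 22 and 61). The 2 below were Slc12a3 and Slc34a1, the renal phosphate transporter, with 2 and 0 ChIP reads against 19 and 35 input reads. For Slc34a1 the edgeR adjusted p of 0.0249 became 0.0815 with the block, and for Slc10a2 the adjusted p of 0.0247 became 0.0577 with library totals. DESeq2 gave Slc10a2 and Slc17a1 adjusted p-values of 0.140 and 0.0757. Slc22a6 (percentile 82.3) and Slc34a1 (8.70), both carriers of the proximal tubule, lay at opposite ends. The list had a median percentile of 46.7, compared with 50.0 for all promoters. In v102 and v134 alone the median was 57.6 and 58.8, so its side of 50.0 depends on the ranking. The scaled ratios of the list were 1.00 and 1.03.

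H3K9me2 was lower where the GC and CpG content of the 2 kb window around the start site was higher. Over 346 located Slc promoters, the Spearman rho of the log2 ratio was −0.458 with GC content and −0.337 with the CpG observed/expected ratio, which divides the number of CG by the number expected from the C and G content. Over all located promoters the values were −0.549 and −0.519. The Slc promoters above input had a median GC content of 45.4% and a median CpG ratio of 0.275, compared with 55.2% and 0.594 for those below. In the 300-base sequences, the median number of CG was 7 for 23 promoters above input and 19 for 40 below.

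Located promoters were divided by the CpG ratio, at 0.269 and 0.591, into groups of 7433 each. In the CpG-low group the 76 Slc promoters had a median percentile of 54.3, compared with 73.1 for all promoters of the group, and 15 (19.7%) were above and 8 (10.5%) below input, compared with 37.7% above and 6.22% below over the group. In the middle group the 148 Slc promoters had a median of 46.4, compared with 48.6, with 15 above (10.1%, compared with 11.3%) and 20 below (13.5%, compared with 15.2%). In the CpG-high group the 122 Slc promoters had a median of 33.8, compared with 28.9, with 2 above (1.64%, compared with 3.67% of the group) and 28 below (22.95%, compared with 31.3%). The gap to other promoters was thus widest where CpG was low, and the Slc promoters were spread less by CpG content than promoters in general. These differences were not tested.

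The mitochondrial and organic ion families also differed in this respect. The median CpG ratio was 0.612 for Slc25a and 0.276 for Slc22a, and 24 of the 43 Slc25a promoters but 5 of the 22 Slc22a promoters were in the CpG-high group. Within that group the median percentile was 33.8 for Slc25a and 45.9 for Slc22a, and in the middle group it was 37.1 for 16 Slc25a and 58.8 for 6 Slc22a promoters. In the CpG-low group it was 70.3 for 3 Slc25a and 53.0 for 11 Slc22a promoters, in the opposite order. After removal of the GC trend the medians were 41.6 for Slc25a and 63.8 for Slc22a. Windows overlapping another promoter were 13 of the 43 for Slc25a and 1 of the 22 for Slc22a.

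Single promoters departed from the CpG pattern in both directions. Slc25a31, with a CpG ratio of 0.594, and Slc33a1, the acetyl-CoA transporter, with 0.750, were the 2 promoters of the CpG-high group above input. Slc7a14 had 18 CG in its sequence and a CpG ratio of 0.512, and it stood at percentile 99.97 after the GC correction. Slc15a2, with no ChIP reads, had a CpG ratio of 0.284 and a GC content of 40.4% and stood at percentile 0.0404 after the correction. Of 32 located promoters above input, 25 remained in the top quartile after the correction.

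**Figure D4:**
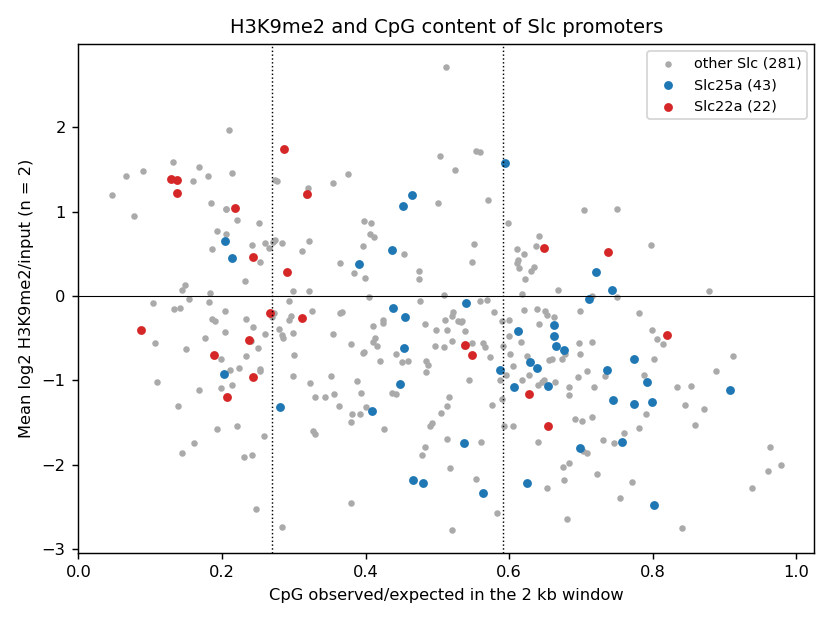
Mean log2 H3K9me2/input ratio of both experiments (y axis) against the CpG observed/expected ratio of the 2 kb window (x axis) for 346 located Slc promoters, with Slc25a in blue, Slc22a in red and other families in grey. Dotted lines at 0.269 and 0.591 divide all located promoters into groups of equal size; most Slc25a promoters lie to the right and Slc22a promoters are spread over all 3 groups.

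Some solute carrier genes lie near each other, and genes between them were not looked for. Of the located Slc promoters, 91 fell into 40 clusters with no more than 200 kb between successive start sites. On chromosome 13, Slc17a2, Slc17a3, Slc17a1 and Slc17a4, which encode phosphate, urate and anion transporters of kidney and gut, spanned 108 kb, with percentiles of 87.7, 76.6, 84.8 and 88.9. Slc17a2, Slc17a1 and Slc17a4 were above input, whereas Slc17a3, with 9 and 14 ChIP reads against 26 and 35 input reads, had an edgeR adjusted p of 0.126. Of the 19 promoters within 200 kb of Slc17a4, the other carriers of the cluster included, 6 lay in the top quartile of v102 as well as v134. The share over all promoters was 17.7%. The promoter nearest to Slc17a4, Hist1h2ba, was at percentile 95.8.

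Slc22a genes near each other did not always share a level. Slc22a19 and Slc22a26 on chromosome 19, 91.4 kb apart, were both above input (percentiles 87.7 and 85.2). On chromosome 9, Slc22a13 (92.8) was above input, while Slc22a13b-ps (70.7), 22.6 kb away, and Slc22a14 (53.0) were not called. The 3 promoters Slc22a5, Slc22a21 and Slc22a4 on chromosome 11, which include carnitine transporters, were not called either, with percentiles from 38.7 to 73.1. Within 132 kb on chromosome 19, Slc22a8 was at percentile 38.6, Slc22a6 at 82.3 and above input, and Slc3a2 at 8.77 and below input.

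**Figure D5:**
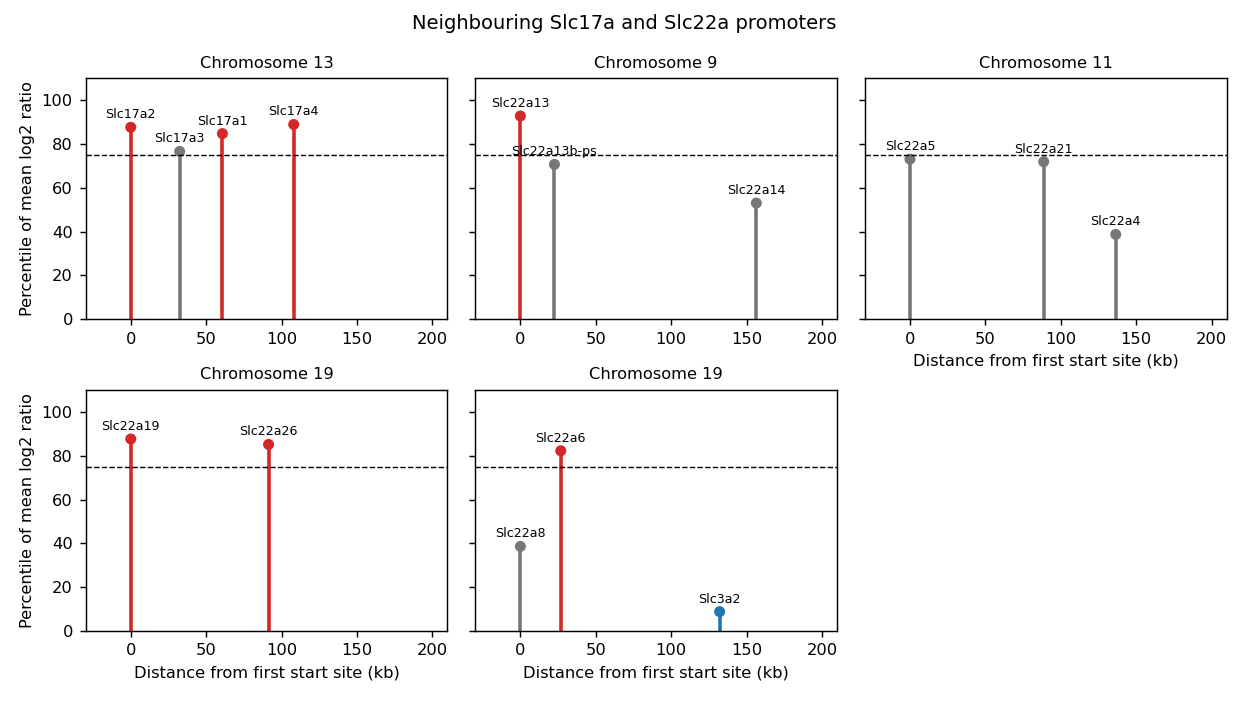
Percentile of the mean log2 H3K9me2/input ratio among all promoters (y axis) against the distance from the first start site of the cluster in kb (x axis) for 5 clusters of Slc17a and Slc22a promoters, red where above input, blue where below and grey where neither by edgeR. The dashed line marks the 75th percentile; all 4 Slc17 promoters lie above it, whereas Slc22a6 and Slc3a2, in the same cluster, lie on opposite sides.

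Within 200 kb of the 32 located Slc promoters above input lay 127 promoters of other genes. Their median percentile was 55.3, and 17 (13.4%) were in the top quartile of both experiments, compared with 17.7% of all promoters. Within 200 kb of the 56 below input lay 560 promoters of other genes, with a median percentile of 36.6 and 5.36% in the top quartile of both. Slc8a1, Slc10a2, Slc22a22 and Slc35f4 had no other promoter of the table within this distance. None of the 32 shared its window with another promoter, while 13 of the 56 did, and over all Slc promoters 49 (14.2%) did, compared with 17.6% of all located promoters.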

How the data were processed

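The deposited table holds, per the file headers, raw counts of reads for 26354 promoters in 2 H3K9me2 ChIP and 2 input libraries of mouse aortic media, their sums, and a ratio of the summed ChIP over the summed input counts, which the authors did not scale for library size. Per the study's methods and the labels, the authors trimmed paired-end reads with Trim Galore 0.4.2 and cutadapt 1.9.1, aligned them to GRCm38 with Bowtie2 2.2.7, counted reads within 1 kb of each start site with SeqMonk and removed promoters with few input reads. Which annotation release was used and whether duplicates were removed is not given in the sources used here.

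ChIP and input were compared in edgeR 4.0.16 under R 4.3.3 (quasi-likelihood test, TMM, no filter, Benjamini-Hochberg adjustment at 0.05) over all promoters. DESeq2 1.42.0 was the alternative. The edgeR test was tested on simulated data. Log2 ratios were scaled by library totals over the promoters with a pseudocount of 1 read. Start sites, GC and CpG content came from GENCODE M21 on GRCm38, in which 346 of the 348 symbols were located. The GC trend was removed with a lowess fit (fraction 0.3). Each ChIP has its own input, which pairs the libraries by experiment; the correlation of the ChIP and input differences was 0.104. Promoters were named by rank, by family or as members of written lists. Members and lists were chosen with earlier results of these data known. Promoters named because of a departure from the CpG pattern, and Slc30a8, Slc33a1 and cluster members, were chosen after their values were seen. A few promoters are counted in the lists but not reported here singly. Python 3.11.15, pandas 2.3.3 and statsmodels 0.14.6 were used.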

Additional observations from a re-analysis of the deposited data

How the results depend on the processing

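With only 2 libraries a group and a median of 3 and 4 ChIP reads, a single Slc promoter is measured with low precision, most of all below input. A minimum of 20 reads per input library left 183 of the 348 promoters. The test then called 21 above (17 also called without the minimum) and 21 below (all also called without it), over fewer promoters. DESeq2 called 19 above and 0 below. The median percentile of the Slc promoters was 47.9 under that minimum, 44.9 at a pseudocount of 5 and 51.5 with the GC correction. That of Slc25a was 39.9 without shared windows and 41.6 with the GC correction. That of Slc22a was 64.9 under the minimum, 49.7 without shared windows, 55.0 at a pseudocount of 5, 63.8 with the GC correction and 53.9 from summed reads. The pooled ratio of Slc22a over Slc25a was 2.22 under the minimum. In each of these settings the median of Slc25a remained under that of Slc22a. Leaving out either experiment gave medians of 42.3 to 44.2 (Slc), 32.8 to 37.4 (Slc25a) and 64.3 to 65.0 (Slc22a), and a pooled ratio of 1.62 to 1.92. Log2 fold changes that changed sign were those of Slc4a7 (−0.042), Slc16a1 (−0.054), Slc17a8 (−0.073) and Slc25a20 (−0.056) with library totals, and Slc2a1 (0.24) and Slc18a1 (0.025) under the minimum, none of them called in any setting. The cause of these changes was not tested.

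With the experiment as a replicate block, 30 Slc promoters were above input and 25 below. Among the named promoters 10 lost their call, and many of the 75 named had no call to lose. The edgeR test was not run without either experiment, since 1 library a group leaves no residual degrees of freedom.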

Other observations

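Transporters outside the Slc symbols gave different values. Of 15 Slco promoters, which belong to organic anion transporters of liver, kidney and brain, 5 (33.3%) were above input and 0 below. Over all promoters 18.6% were above and 17% below. The Slco promoters had a median percentile of 70.1 and scaled ratios of 1.901 in v102 and 1.62 in v134. Their median GC content was 39.98%, and after the GC correction their median percentile was 50.8. Of 48 ATP-binding cassette (ABC) transporter promoters, 2 (4.17%) were above input and 10 (20.8%) below (median percentile 39.3). Of 11 aquaporin promoters, 0 were above and 1 (9.09%) below, with a median percentile of 26.6 and scaled ratios of 0.703 and 0.459. By edgeR's test at an unadjusted p under 0.05, 0 of the 11 aquaporin promoters were above and 5 below. Of all 26354 promoters, 5646 were above and 6542 below at this threshold. The same counts were 3 and 16 for the 48 ABC, 5 and 1 for the 15 Slco and 41 and 84 for the 348 Slc promoters.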
